A study of Mus musculus with 103 samples.

Results

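The response of macrophages to 24 h of Kdo2-lipid A (KLA) was compared with their response to 12 h of the same agent, gene by gene, in poly(A) RNA. The comparison rests on 4 of the 103 samples of the series, and on 10383 genes tested of 22798 gene symbols measured. The cells were thioglycollate-elicited peritoneal macrophages, which gather in the peritoneal cavity after an irritant broth is injected. They were washed out 3 to 4 days after 2.5 ml of thioglycollate from male C57Bl/6 mice of 6 to 8 weeks, kept overnight in medium with 0.5% serum, and given KLA at 100 ng/ml or left without it. The 4 groups were cells with KLA for 24 h, their untreated 24 h control, cells with KLA for 12 h, and an untreated control that the labels assign to the times from 1 to 12 h, called early untreated cells here. No genetic change is named for any of them, and all 4 shared the thioglycollate, the plating and the low-serum night. Each group is 1 library. No difference therefore has a replicate check and no test was made, and all intervals and read floors cover counting error alone, since sequenced reads without molecular identifiers are not independent molecules. Libraries of KLA for 1 h and 6 h are used only to place levels in time.

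KLA is a chemically defined form of the lipid anchor of bacterial lipopolysaccharide, and it acts through Toll-like receptor 4. That receptor signals through MyD88 to NF-kB and through TRIF to IRF3. The first wave holds cytokine and chemokine genes and Ifnb1, and the secreted interferon then acts back through its receptor, STAT2 and IRF9 on antiviral genes. Later changes include glycolysis, antigen presentation and sterol metabolism, in which SREBP2 drives the enzymes of cholesterol synthesis when membrane sterol is low.

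For each gene the response at a time was the log2 ratio of the KLA library to its own untreated library, on RPKM values with 1 added, RPKM being reads per kilobase of transcript scaled to the size of the library. The log2 difference given below is the response at 24 h minus that at 12 h, and a gene was called where that difference reached 1, which is 2-fold. The response was higher at 24 h for 683 genes, 6.58% of those tested, and lower for 231, 2.22%. With a counting interval of the ratio of ratios that also left out 1, 481 genes (4.63%) were higher and 125 (1.2%) lower. The median log2 difference over all genes tested was 0.20 and its SD over genes 0.56. When each response was shifted to a median of 0, which moves every difference down by 0.23, 348 genes were higher and 446 lower, so the excess of higher calls turned into an excess of lower ones. Differences of single genes and lists are best read relative to that median.

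Most genes raised by KLA at 12 h were also raised at 24 h, while fewer of those lowered at 12 h were on the 24 h list. Genes at least 2-fold above their control numbered 999 at 24 h (9.62% of genes tested) and 886 at 12 h (8.53%). They shared 712, which is 71.3% of the 24 h list and 80.4% of the 12 h list. Genes at least 2-fold below their control numbered 1072 at 24 h (10.3%) and 1665 at 12 h (16%), and 781 were on both lists, 72.9% of the 24 h list and 46.9% of the 12 h list. Of the 886 genes raised at 12 h, 105 had a response at least 2-fold weaker at 24 h and 47 one at least 2-fold stronger. Of the 1665 lowered at 12 h, 296 had a ratio to their control at least 2-fold higher at 24 h and 20 one at least 2-fold lower. The median response over all genes tested was -0.10 at 24 h and -0.33 at 12 h, and the 2-fold limit was not adjusted for it. The part of that offset, and of choosing genes by their 12 h value, in these counts was not tested. Across all genes tested the log2 ratios at the 2 times had a Pearson r of 0.876 and a Spearman rho of 0.731, a description over genes, which are not independent replicates.

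**Figure D1:**
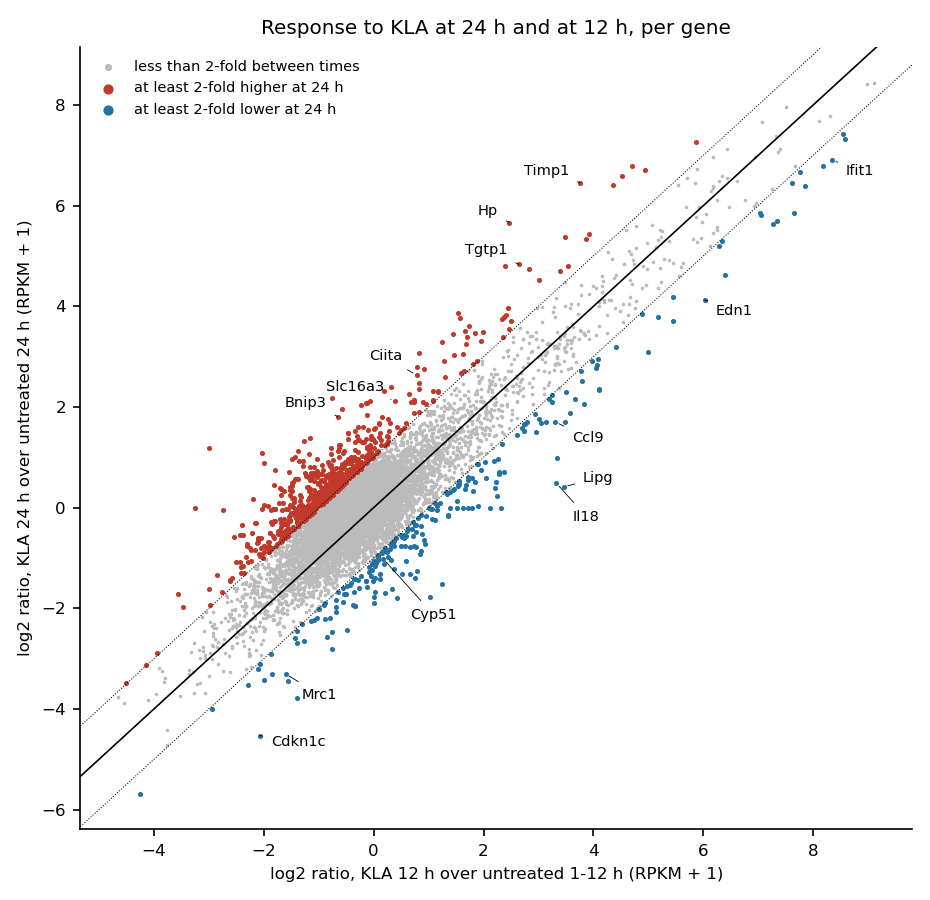
Response to KLA at 24 h (y axis) against the response at 12 h (x axis) for each of the 10383 genes tested, both as log2 ratios of RPKM + 1 to the untreated library of that time; the solid line marks equal responses and the dotted lines a log2 difference of 1 either way. Hp, Timp1, Ciita and Bnip3 lie above the band and Lipg, Il18, Ccl9, Edn1 and Cdkn1c below it.

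A difference of this kind can come from the KLA libraries, from the untreated libraries or from both. KLA 24 h was at least 2-fold above KLA 12 h directly for 504 genes (4.85%) and at least 2-fold below it for 162 (1.56%). The untreated libraries differed as much for 108 genes higher at 24 h (1.04%) and 203 lower (1.96%). Of the 683 higher calls, the KLA libraries alone were 2-fold apart for 231, the untreated libraries alone for 102, both for 8 and neither for 342. Of the 231 lower calls these numbers were 84, 34, 1 and 112. The genes below are therefore given in all 4 libraries. In bulk RNA, fewer cells of a type and less RNA per cell cannot be told apart.

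**Figure D2:**
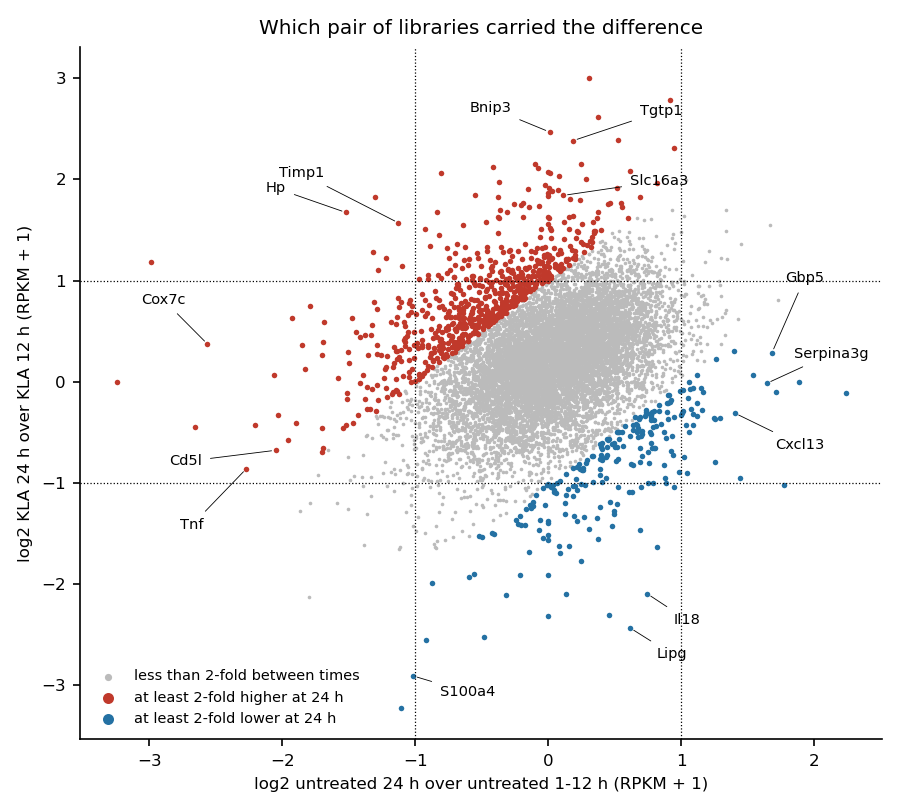
Log2 ratio of KLA 24 h to KLA 12 h (y axis) against log2 ratio of untreated 24 h to early untreated cells (x axis, the early library labelled untreated 1-12 h), both on RPKM + 1, for each gene tested, with dotted lines at 2-fold. Bnip3, Tgtp1 and Slc16a3 are displaced along the KLA axis, Tnf, Cox7c, Gbp5 and Serpina3g along the untreated axis.

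Among genes with at least 20 reads, a difference beyond counting error and KLA libraries that were themselves 2-fold apart, the largest higher difference was that of Hp, which encodes haptoglobin, the acute-phase protein that binds free hemoglobin (mm9 chr8:112099028-112103072, minus strand). Hp stood at 64.3 RPKM in KLA 24 h and 0.288 in untreated 24 h cells, against 19.5 in KLA 12 h and 2.70 RPKM in early untreated cells. Its level was 3.30-fold higher at 24 h than at 12 h of KLA (95% counting interval 2.49 to 4.43), and the untreated libraries moved the other way, on 1 read at 24 h and 8 reads early. Timp1, an inhibitor of matrix metalloproteinases (mm9 chrX:20448160-20451863, plus strand), had 349 RPKM in KLA 24 h and 2.99 in untreated 24 h cells, against 117 in KLA 12 h and 7.71 RPKM in early untreated cells. The KLA level was 2.99-fold higher at 24 h than at 12 h of KLA (95% counting interval 2.53 to 3.54). Ly6a, the Sca-1 surface antigen and an interferon-responsive gene, had 71.6 RPKM in KLA 24 h and 1.62 in untreated 24 h cells, against 19.3 in KLA 12 h and 2.85 RPKM in early untreated cells. It was 3.72-fold higher at 24 h than at 12 h of KLA (95% counting interval 2.67 to 5.28). In all 3 genes KLA 24 h was the highest of the 4 libraries and KLA 12 h the second.

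Tgfbi, Ctgf and Pdlim7 were also among the 12 largest higher differences under these limits. Tgfbi, a secreted adhesion protein induced by TGF-beta (mm9 chr13:56710964-56740700, plus strand), had 79.5 RPKM in KLA 24 h and 4.48 in untreated 24 h cells, against 19.5 in KLA 12 h and 6.10 RPKM in early untreated cells. It was 4.07-fold higher at 24 h than at 12 h of KLA (95% counting interval 3.35 to 4.97). Ctgf, a matricellular growth factor, had 8.56 RPKM in KLA 24 h and 1.45 in untreated 24 h cells, against 1.19 in KLA 12 h and 2.27 RPKM in early untreated cells. It was 7.19-fold higher at 24 h than at 12 h of KLA (95% counting interval 3.26 to 18.7), so that KLA 12 h was the lowest of the 4 libraries and KLA 24 h the highest. Pdlim7, an actin-associated scaffold, had 8.55 and 1.33 RPKM with and without KLA at 24 h, and 2.49 and 3.11 RPKM with and without KLA in the 12 h pair. Fibroblast and mesothelial markers also had a raised median difference. Between the KLA libraries 7 of the 8 markers were higher at 24 h, 3 of them beyond counting error, and 1 was lower. None reached 2-fold there on RPKM + 1. The median response of these markers was 0.12 at 24 h and -0.65 at 12 h. All 8 were tested, with a median log2 difference of 0.97, and 3 were called higher (Col1a1, Col1a2 and Lum; 2 beyond counting error) and none lower, but after the shift to a median of 0 none was higher and 1 lower. Their summed level was 182.9 RPKM with KLA and 115.7 RPKM without it at 24 h, and 97.9 RPKM with KLA and 123.6 RPKM without it in the 12 h pair. Dcn, the fibroblast proteoglycan decorin, had 104 RPKM in KLA 24 h and 59.5 in untreated 24 h cells, against 52.2 in KLA 12 h and 58.9 RPKM in early untreated cells, while Upk3b was at 0 in KLA 24 h cells and Lum at 0 in KLA 12 h cells. The part of such cells in the result was not tested.

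Bnip3, a mitophagy receptor and a classic target of the hypoxia-inducible factor, completed the well-covered higher genes (mm9 chr7:146082519-146101189, minus strand). It had 22.6 RPKM in KLA 24 h and 5.73 in untreated 24 h cells, against 3.26 in KLA 12 h and 5.68 RPKM in early untreated cells. Its KLA level was 6.93-fold higher at 24 h than at 12 h of KLA (95% counting interval 3.95 to 13.1), and the untreated libraries were equal within counting error. The other 5 genes of the top 12, Rom1, Atp5g1, Trp53i13, Nme4 and Rfc4, rest on few reads. Rfc4, a subunit of the clamp loader of DNA replication, had the most of them, with 21, 14, 2 and 13 reads in KLA 24 h, untreated 24 h, KLA 12 h and early untreated cells. Rom1 had 0 reads in KLA 12 h cells and 13 in KLA 24 h cells.

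**Figure D3:**
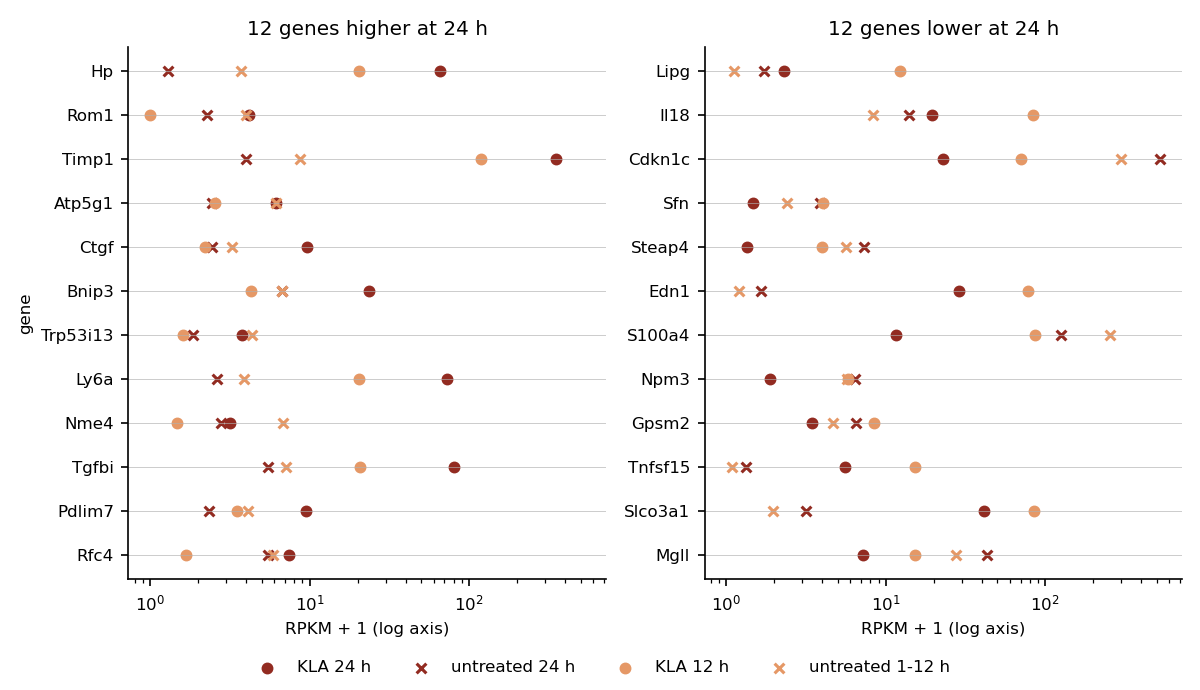
Levels (RPKM + 1, log axis) of the 12 genes with the largest higher differences (left) and the 12 with the largest lower differences (right) in the 4 libraries, among genes whose KLA libraries were 2-fold apart in the same direction. KLA 24 h lies right of KLA 12 h in all 12 on the left and left of it in all 12 on the right; Cdkn1c and S100a4 were highest without KLA.

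Under the same limits of reads, counting error and KLA libraries, the largest lower difference belonged to Lipg, endothelial lipase, which cleaves phospholipids of high-density lipoprotein. Lipg had 1.28 RPKM in KLA 24 h and 0.715 in untreated 24 h cells, against 11.3 in KLA 12 h and 0.12 RPKM in early untreated cells. The KLA level was 8.83-fold lower at 24 h than at 12 h of KLA (95% counting interval 4.95 to 17.1). Il18, a cytokine that drives interferon-gamma production and is matured by caspase-1 (mm9 chr9:50373473-50389942, plus strand), had 18.6 RPKM in KLA 24 h and 13.0 in untreated 24 h cells, against 82.7 in KLA 12 h and 7.34 RPKM in early untreated cells. KLA 12 h stood above the other 3 libraries for both genes, and for Il18 the KLA level was 4.45-fold lower at 24 h than at 12 h of KLA (95% counting interval 3.17 to 6.36). Edn1, which encodes the vasoconstrictor endothelin-1 (mm9 chr13:42396639-42403358, plus strand), had 27.9 RPKM in KLA 24 h and 0.660 in untreated 24 h cells, against 76.9 in KLA 12 h and 0.194 RPKM in early untreated cells. It was far above its control at both times. Lipg, Edn1 and Tnfsf15 each had 1 read in early untreated cells, so their ratios to that library are imprecise; the interval of the ratio of ratios of Edn1 ran from 1.04 to 84.6-fold lower. Tnfsf15, a TNF-family ligand, had 4.56 and 0.332 RPKM with and without KLA at 24 h, and 14.2 and 0.0778 RPKM with and without KLA in the 12 h pair. Slco3a1, an organic anion transporter, had 40.4 and 2.17 RPKM with and without KLA at 24 h, and 84.3 and 0.953 RPKM with and without KLA in the 12 h pair.

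A second set of lower genes was below its control at both times and farther below at 24 h. Cdkn1c encodes p57, an inhibitor of cyclin-dependent kinases (mm9 chr7:150644244-150646955, minus strand). It had 21.8 RPKM in KLA 24 h and 525 in untreated 24 h cells, against 69.8 in KLA 12 h and 297 RPKM in early untreated cells. It was 3.20-fold lower at 24 h than at 12 h of KLA (95% counting interval 2.57 to 4.01). S100a4, a small calcium-binding protein (mm9 chr3:90407692-90409967, plus strand), had 10.5 RPKM in KLA 24 h and 124 in untreated 24 h cells, against 85.3 in KLA 12 h and 252 RPKM in early untreated cells. Its KLA level was 8.12-fold lower at 24 h than at 12 h of KLA (95% counting interval 4.63 to 15.4), although its untreated level was also lower at 24 h. Mgll, the lipase that splits monoacylglycerol, had 6.21 RPKM in KLA 24 h and 41.9 in untreated 24 h cells, against 14.3 in KLA 12 h and 26.7 RPKM in early untreated cells. Steap4, a metalloreductase, had 0.357 and 6.28 RPKM with and without KLA at 24 h, and 2.99 and 4.62 RPKM with and without KLA in the 12 h pair, with KLA 24 h the lowest of the 4. Gpsm2, an orienting factor of the mitotic spindle, was below its control at 24 h and above it at 12 h, with 2.47 and 5.54 RPKM with and without KLA at 24 h, and 7.38 and 3.64 RPKM with and without KLA in the 12 h pair. Sfn and Npm3, also in the lowest 12, had 2 and 2 reads in KLA 24 h cells.

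Enzymes of cholesterol synthesis had the lowest median of the 22 gene lists described. Of 20 enzymes 19 were tested, Hmgcs1 being listed at 0 in the libraries compared. None was called higher and 8 were called lower, all 8 beyond counting error, against 2.22% of all genes called lower. The median log2 difference was -0.89, against 0.20 over all genes tested, and all 19 lay below that median. With responses shifted to a median of 0, 10 were lower and none higher. The median response was -0.72 at 24 h and 0.12 at 12 h. Both parts moved, with a median log2 ratio of -0.63 between the KLA libraries and 0.37 between the untreated ones.

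The called enzymes run from the start of the pathway to its end. Acat2, the thiolase that makes acetoacetyl-CoA, had 8.65 RPKM in KLA 24 h and 11.9 in untreated 24 h cells, against 11.0 in KLA 12 h and 6.77 RPKM in early untreated cells. Mvk, mevalonate kinase, had 5.41 RPKM in KLA 24 h and 10.5 in untreated 24 h cells, against 15.0 in KLA 12 h and 12.3 RPKM in early untreated cells, and KLA 24 h was the lowest of its 4 libraries. Sqle, squalene epoxidase, which takes squalene into the sterol branch, had 25.3 RPKM in KLA 24 h and 57.7 in untreated 24 h cells, against 39.7 in KLA 12 h and 38.8 RPKM in early untreated cells. Untreated 24 h cells held the most Sqle and KLA 24 h cells the least. Lss, which closes the sterol ring to lanosterol, had 8.68 and 14.7 RPKM with and without KLA at 24 h, and 14.1 and 11.0 RPKM with and without KLA in the 12 h pair. Cyp51, the lanosterol demethylase, had 24.3 RPKM in KLA 24 h and 50.0 in untreated 24 h cells, against 41.5 in KLA 12 h and 36.8 RPKM in early untreated cells, a log2 difference of -1.18. Nsdhl, a sterol dehydrogenase of the next steps, had 12.6 and 21.8 RPKM with and without KLA at 24 h, and 17.3 and 13.7 RPKM with and without KLA in the 12 h pair. Hsd17b7, the 3-ketosteroid reductase of the pathway, was the lowest, with 4.41 RPKM in KLA 24 h and 7.94 in untreated 24 h cells, against 7.95 in KLA 12 h and 3.67 RPKM in early untreated cells. Sc5d, the lathosterol desaturase, had 34.4 and 101 RPKM with and without KLA at 24 h, and 46.5 and 63.3 RPKM with and without KLA in the 12 h pair, and unlike Hsd17b7 it was below its control at both times. Pmvk, Dhcr7, Tm7sf2 and Ebp had log2 differences between -0.03 and 0.10.

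The genes that govern this pathway were not called in either direction, 0 of 11 tested of 12, with a median log2 difference of 0.05. Srebf2, which encodes SREBP2, had 20.0 RPKM in KLA 24 h and 31.2 in untreated 24 h cells, against 27.3 in KLA 12 h and 28.3 RPKM in early untreated cells. Insig1, the sterol-sensing retention factor, had 32.6 and 45.8 RPKM with and without KLA at 24 h, and 43.2 and 38.4 RPKM with and without KLA in the 12 h pair. Stard4, a sterol carrier, had the lowest difference of the list, -0.84. Fatty acid synthesis, elongation and desaturation likewise had 0 of 18 tested of 21 called and a median of 0.05, with Fasn, the fatty acid synthase, at -0.74 and Scd2, a desaturase, at 0.37.

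Deposited peaks of SREBP1 lay at the start sites of most of these enzymes. The peaks come from macrophages given the LXR agonist GW3965, not KLA, so they place the protein in another condition. A peak centre within 1000 bases of the start was found for 17 of the 19 enzymes tested, 89.5%, and 7 of those 17 were called lower. A peak of LXR, from the same kind of treated cells, lay as near for 11 of the 19, 57.9%. Of all 10383 genes tested, 4331 had an SREBP1 peak so near. An LXR peak lay so near for 2698 genes together with SREBP1 and for 2795 without it, so LXR peaks were common among all genes. Over all genes, the 4331 with an SREBP1 peak so near had a median log2 difference of 0.21 with 1.52% called lower and 5.84% higher. The 6052 with none had 0.19, 2.73% and 7.11%. The peak at Cyp51 (mm9 chr5:4104708-4104902) held 75.8 normalised tags, 24.9-fold over input, and the one at Hsd17b7 (mm9 chr1:171899384-171899578) held 66 tags, 21.7-fold, both as the authors give them.

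Promoter windows of 250 bases before and 50 after the start were taken from RefSeq, build GRCm38.p6, for 8362 of the genes tested, 14 of them enzymes of this list. A gene with several start sites has several windows and counts once, as holding a motif, where any of them matches. A sterol response element written TCACNCCAC, searched on both strands, was found in none of the 14 and in 1.33% of the genes tested that have a window. A shorter form, TCACNNCA, chosen after that search, was found in 7 of 14 (50%) and in 13.3% of those genes. The shorter form holds every match of the longer one, and these counts describe letters and not bound sites. Among called enzymes, Cyp51, Hsd17b7, Nsdhl and Sc5d have both a peak and a match to the shorter form, while Acat2, Mvk and Lss have a window without a match. The windows of Cyp51 (chr5:4104648-4104947, minus strand) and Hsd17b7 (chr1:169969156-169969455, minus strand) are shown as examples, with the match in capitals.
Cyp51: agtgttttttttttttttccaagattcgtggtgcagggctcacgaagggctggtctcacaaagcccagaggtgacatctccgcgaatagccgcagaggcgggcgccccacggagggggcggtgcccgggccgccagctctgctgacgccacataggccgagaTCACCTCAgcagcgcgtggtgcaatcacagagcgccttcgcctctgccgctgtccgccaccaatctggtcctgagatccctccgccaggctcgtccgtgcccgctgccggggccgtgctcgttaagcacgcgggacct
Hsd17b7: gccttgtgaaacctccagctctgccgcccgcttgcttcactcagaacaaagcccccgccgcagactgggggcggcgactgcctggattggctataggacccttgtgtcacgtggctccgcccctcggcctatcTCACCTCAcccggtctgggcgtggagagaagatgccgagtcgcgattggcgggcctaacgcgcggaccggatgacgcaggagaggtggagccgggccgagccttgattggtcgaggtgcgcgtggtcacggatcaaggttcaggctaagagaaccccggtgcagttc

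Cytokine genes had a median log2 difference of -0.49, with 6 called lower and 3 higher of 26 tested of 27. For this and the later lists, the shares called over all genes tested were 2.22% lower and 6.58% higher. Beyond counting error 5 were lower and 1 higher, and after the shift to a median of 0 these calls by size were 10 and 3. Il12b, the shared subunit of IL-12 and IL-23, had 7.48 RPKM in KLA 24 h and 0 in untreated 24 h cells, against 30.8 in KLA 12 h and 0 RPKM in early untreated cells. It was 4.12-fold lower at 24 h than at 12 h of KLA (95% counting interval 2.88 to 6.03). Il1rn, the interleukin-1 receptor antagonist, had 984 RPKM in KLA 24 h and 229.9 in untreated 24 h cells, against 1669.7 in KLA 12 h and 176 RPKM in early untreated cells. Il1a, an alarmin, had 1410.3 RPKM in KLA 24 h and 37.6 in untreated 24 h cells, against 1771 in KLA 12 h and 21.6 RPKM in early untreated cells, with the larger part of its difference in the untreated libraries. Il1b had 801 RPKM in KLA 24 h and 2.62 in untreated 24 h cells, against 2485 in KLA 12 h and 6.84 RPKM in early untreated cells. It was 3.10-fold lower at 24 h than at 12 h of KLA (95% counting interval 2.97 to 3.24), yet it was not called, because the untreated level was lower at 24 h as well. Il6, a driver of the acute-phase response, had 88.5 and 0.356 RPKM with and without KLA at 24 h, and 175 and 0.418 RPKM with and without KLA in the 12 h pair, a log2 difference of -0.91. Il27, a regulator of T cells, had 19.6 and 0 RPKM with and without KLA at 24 h, and 58.6 and 0.644 RPKM with and without KLA in the 12 h pair.

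Tnf went against the list by the ratio and with it by the level. Tnf had 639 RPKM in KLA 24 h and 3.13 in untreated 24 h cells, against 1159.9 in KLA 12 h and 18.9 RPKM in early untreated cells, so the KLA level was 1.81-fold lower at 24 h than at 12 h of KLA (95% counting interval 1.73 to 1.90) while the log2 difference was 1.41. Ifnb1, interferon beta, had 1.94 RPKM in KLA 24 h cells and was listed at 0 in the other 3 libraries, on 4 reads. Il1f9, an interleukin-36 cytokine, had 6.59 and 0.470 RPKM with and without KLA at 24 h, and 2.73 and 1.10 RPKM with and without KLA in the 12 h pair. Vegfa, the angiogenic growth factor, had 9.52 and 13.6 RPKM with and without KLA at 24 h, and 3.55 and 7.74 RPKM with and without KLA in the 12 h pair, and its KLA level was 2.68-fold higher at 24 h than at 12 h of KLA (95% counting interval 1.76 to 4.21).

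Chemokines had a median of -0.53, with 7 of 22 called lower, 3 of them beyond counting error, and none higher; after the shift 9 were lower and none higher. Ccl9, which attracts myeloid cells, had 278 RPKM in KLA 24 h and 84.7 in untreated 24 h cells, against 702 in KLA 12 h and 70.1 RPKM in early untreated cells. It was 2.52-fold lower at 24 h than at 12 h of KLA (95% counting interval 2.40 to 2.65). Ccl12, a ligand of CCR2, had 41.2 RPKM in KLA 24 h and 0.722 in untreated 24 h cells, against 83.3 in KLA 12 h and 0 RPKM in early untreated cells. Ccl22, a ligand of CCR4, had 19.8 and 1.28 RPKM with and without KLA at 24 h, and 41.5 and 1.00 RPKM with and without KLA in the 12 h pair. Ccl24, an eosinophil attractant, had 0.871 and 0.600 RPKM with and without KLA at 24 h, and 5.39 and 0.352 RPKM with and without KLA in the 12 h pair. The most abundant members were not called. Ccl5 had 7350.1 RPKM in KLA 24 h and 20.4 in untreated 24 h cells, against 11289 in KLA 12 h and 21.4 RPKM in early untreated cells. Ccl2, which recruits monocytes, had 3154 RPKM in KLA 24 h and 56.7 in untreated 24 h cells, against 2642 in KLA 12 h and 44.5 RPKM in early untreated cells. Cxcl9, an attractant of T cells through CXCR3 that interferon gamma induces, was the member with the highest ratio between the KLA libraries, 2.36-fold higher at 24 h than at 12 h of KLA (95% counting interval 2.07 to 2.69). NF-kB factors and their feedback inhibitors had a median of 0.05 and 1 of 27 called, the phosphatase Dusp2, lower, with 0.925 and 4.30 RPKM with and without KLA at 24 h, and 6.32 and 7.01 RPKM with and without KLA in the 12 h pair. Nfkbia, the inhibitor that NF-kB itself induces, had 256 and 20.3 RPKM with and without KLA at 24 h, and 337 and 26.4 RPKM with and without KLA in the 12 h pair.

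Interferon-induced antiviral genes were all still above their controls at 24 h, with a median response of 4.80 at 24 h and 5.04 at 12 h. Their median log2 difference was -0.43, and 10 of 36 were called lower and none higher, 5 of the lower ones beyond counting error; after the shift 13 were lower. Below the median of all genes lay 32 of the 36. Rsad2, which encodes viperin, had 1005 RPKM in KLA 24 h and 17.0 in untreated 24 h cells, against 1827 in KLA 12 h and 12.7 RPKM in early untreated cells. Isg15, the ubiquitin-like modifier, had 1323 RPKM in KLA 24 h and 6.65 in untreated 24 h cells, against 2380.4 in KLA 12 h and 5.41 RPKM in early untreated cells. Mx1, a GTPase that blocks orthomyxoviruses, had 82.0 RPKM in KLA 24 h and 0.430 in untreated 24 h cells, against 218 in KLA 12 h and 0.673 RPKM in early untreated cells. It was 2.67-fold lower at 24 h than at 12 h of KLA (95% counting interval 2.42 to 2.94). Ifit1, which binds foreign RNA caps, had 524 RPKM in KLA 24 h and 3.37 in untreated 24 h cells, against 827 in KLA 12 h and 1.55 RPKM in early untreated cells. For these 4 genes KLA 24 h was lower than KLA 12 h and both were far above either untreated library. Stat2, which carries the interferon signal, had a KLA level of 70.1 RPKM at 24 h and 69.5 RPKM at 12 h, nearly the same. Irf7, which amplifies interferon induction, had 967 and 10.5 RPKM with and without KLA at 24 h, and 1333 and 17.5 RPKM with and without KLA in the 12 h pair. Oas1a and Oas1g are close paralogs whose reads may be shared, so their single values are uncertain.

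Guanylate-binding proteins and immunity GTPases, which attack the vacuoles of intracellular pathogens, had a median log2 difference of 0.29, with 3 of 15 tested of 17 called higher and 1 lower, and after the shift 2 higher and 1 lower. Of these calls Gbp4 and the lower one, Gbp5, were beyond counting error, Tgtp1 and Gbp8 not. Iigp1 had 248 RPKM in KLA 24 h and 0.789 in untreated 24 h cells, against 99.0 in KLA 12 h and 0.154 RPKM in early untreated cells. The KLA level was 2.51-fold higher at 24 h than at 12 h of KLA (95% counting interval 2.30 to 2.73). Gbp4 had 84.0 RPKM in KLA 24 h and 0 in untreated 24 h cells, against 32.0 in KLA 12 h and 0.608 RPKM in early untreated cells. It was 2.63-fold higher at 24 h than at 12 h of KLA (95% counting interval 2.32 to 2.98). Tgtp1 had 31.6 RPKM in KLA 24 h and 0.138 in untreated 24 h cells, against 5.24 in KLA 12 h and 0 RPKM in early untreated cells. It was 6.02-fold higher at 24 h than at 12 h of KLA (95% counting interval 4.23 to 8.81); its near-identical copy Tgtp2 had 68.4 and 0.412 RPKM with and without KLA at 24 h, and 32.7 and 0 RPKM with and without KLA in the 12 h pair, and reads may be shared between them. With untreated levels at or near 0 the ratio of ratios of Tgtp1 has a counting interval of 0.0931 to 58.2, so the levels with KLA are the firmer measure. Gbp5 was the one called lower, at -1.39, with 407 RPKM in KLA 24 h and 2.69 in untreated 24 h cells, against 333 in KLA 12 h and 0.150 RPKM in early untreated cells. Its KLA level was the higher one at 24 h, and only its untreated level set the call. Between the KLA libraries the median log2 ratio was 0.55 for these GTPases and -0.31 for the antiviral genes.

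Both groups were searched for the interferon-stimulated response element, as GAAA, any 2 bases and GAAA on both strands in the same RefSeq windows. It was found in 15 of 26 antiviral genes with a window (57.7%), in 9 of 10 of the GTPases (90%) and in 4.10% of all genes tested with a window. Isg15 (chr4:156200769-156201068, minus strand) and Ifit1 (chr19:34640639-34640938, plus strand) are shown as antiviral genes lower at 24 h and Tgtp1 (chr11:48992197-48992496, minus strand) as a GTPase higher at 24 h. Capitals mark the matches, which overlap in Isg15 and lie on the opposite strand in Ifit1.
Isg15: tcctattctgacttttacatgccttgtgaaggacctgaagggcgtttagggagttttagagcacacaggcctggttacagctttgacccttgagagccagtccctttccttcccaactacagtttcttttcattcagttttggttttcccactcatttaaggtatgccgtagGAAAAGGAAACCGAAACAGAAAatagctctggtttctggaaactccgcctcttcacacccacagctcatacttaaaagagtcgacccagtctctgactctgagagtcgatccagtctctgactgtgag
Ifit1: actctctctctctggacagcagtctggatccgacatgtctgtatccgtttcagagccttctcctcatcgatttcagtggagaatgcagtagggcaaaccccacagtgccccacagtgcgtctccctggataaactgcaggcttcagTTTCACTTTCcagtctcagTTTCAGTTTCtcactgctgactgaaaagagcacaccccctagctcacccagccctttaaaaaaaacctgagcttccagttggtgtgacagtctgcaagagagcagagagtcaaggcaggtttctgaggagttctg
Tgtp1: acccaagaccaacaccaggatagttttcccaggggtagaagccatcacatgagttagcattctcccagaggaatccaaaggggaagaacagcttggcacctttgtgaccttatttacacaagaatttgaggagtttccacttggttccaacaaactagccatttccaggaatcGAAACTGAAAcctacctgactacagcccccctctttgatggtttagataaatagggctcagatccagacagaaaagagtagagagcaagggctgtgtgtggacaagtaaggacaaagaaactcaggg

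**Figure D4:**
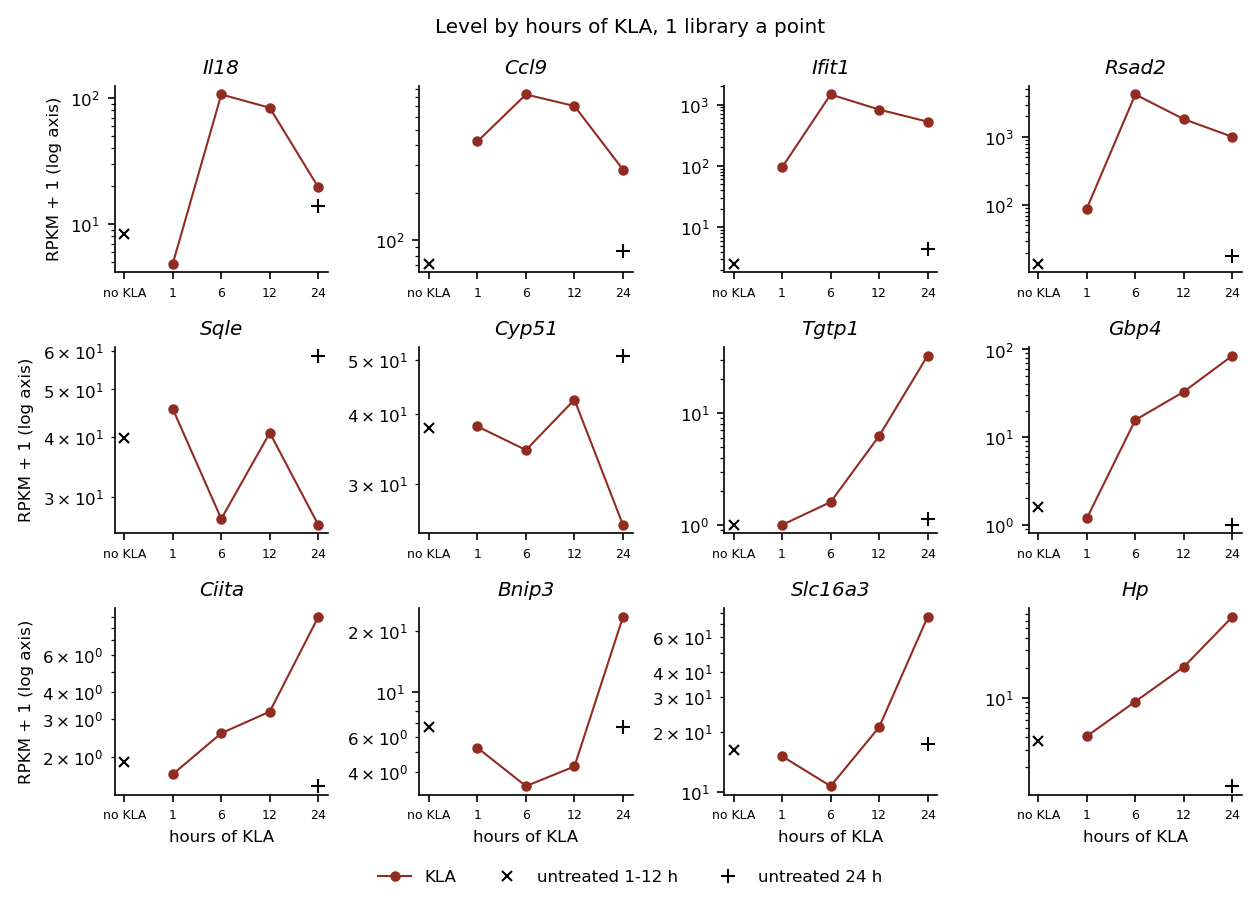
Level (RPKM + 1, log axis) against hours of KLA for 12 genes in the libraries of 1, 6, 12 and 24 h of KLA, with both untreated libraries (the early one labelled untreated 1-12 h). Il18, Ccl9, Ifit1 and Rsad2 were highest at 6 h and lower at each later time, while Tgtp1, Gbp4, Ciita, Slc16a3 and Hp were highest at 24 h.

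The libraries of 1 h and 6 h place these differences. Rsad2 had 87.4, 4216, 1827 and 1005 RPKM at 1, 6, 12 and 24 h of KLA. Il18 had 3.85, 106, 82.7 and 18.6 RPKM over the same times. Both had passed their highest measured level before 12 h. Gbp4 had 0.186, 14.7, 32.0 and 84.0 RPKM, and Hp 3.10, 8.15, 19.5 and 64.3 RPKM, each higher at every later time. Bnip3 had 4.27, 2.40, 3.26 and 22.6 RPKM and was below early untreated cells until 12 h.

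Genes of MHC class II presentation and costimulation had the highest median of the 22 lists, 0.83, with 3 of 13 called higher, all beyond counting error, and 2 called lower, 1 of them beyond it. After the shift 2 were called each way. Between the KLA libraries alone their median was 0.49, below those of the ER stress list (0.57), the GTPases (0.55) and the glycolytic genes (0.55). Ciita, the master transactivator of class II genes, had 8.01 RPKM in KLA 24 h and 0.456 in untreated 24 h cells, against 2.25 in KLA 12 h and 0.891 RPKM in early untreated cells. It was 3.56-fold higher at 24 h than at 12 h of KLA (95% counting interval 2.33 to 5.61). Cd74, the invariant chain, had 745 RPKM in KLA 24 h and 258 in untreated 24 h cells, against 589 in KLA 12 h and 484 RPKM in early untreated cells. H2-Ab1, the beta chain of the I-A molecule, had 316 RPKM in KLA 24 h and 73.3 in untreated 24 h cells, against 222 in KLA 12 h and 119 RPKM in early untreated cells. For Cd74 and H2-Ab1 the KLA level was higher and the untreated level lower at 24 h, and both parts fed the difference. H2-Eb1, H2-Aa, H2-DMa and H2-DMb1 had log2 differences between 0.83 and 0.98, short of the call. The 2 lower members were costimulatory genes. Cd40, the receptor of CD40 ligand, had 191 RPKM in KLA 24 h and 2.86 in untreated 24 h cells, against 453 in KLA 12 h and 1.96 RPKM in early untreated cells. It was 2.37-fold lower at 24 h than at 12 h of KLA (95% counting interval 2.18 to 2.58). Icosl, the ligand of ICOS, had 3.95 and 0.563 RPKM with and without KLA at 24 h, and 8.93 and 0.495 RPKM with and without KLA in the 12 h pair. MHC class I processing genes had none of 16 called and a median of 0.37, which became -0.16 when the KLA libraries were compared directly.

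Glycolytic and hypoxia-type genes had a median log2 difference of 0.59, with 5 of 21 called higher, all beyond counting error, and none lower. After the shift 3 were higher and none lower, and 17 of 21 lay above the median of all genes. Beside Bnip3, Slc16a3, the lactate exporter MCT4, had 75.1 RPKM in KLA 24 h and 16.5 in untreated 24 h cells, against 20.2 in KLA 12 h and 15.2 RPKM in early untreated cells. The KLA level was 3.71-fold higher at 24 h than at 12 h of KLA (95% counting interval 3.03 to 4.58). Tpi1, triosephosphate isomerase, had 193 RPKM in KLA 24 h and 100.2 in untreated 24 h cells, against 87.6 in KLA 12 h and 117 RPKM in early untreated cells. Pfkl, the liver-type phosphofructokinase, had 33.1 RPKM in KLA 24 h and 10.4 in untreated 24 h cells, against 16.8 in KLA 12 h and 11.2 RPKM in early untreated cells. Tpi1 was above its control at 24 h and below it at 12 h, whereas Pfkl was above its control at both times. Pkm, pyruvate kinase, had 160.4 and 115 RPKM with and without KLA at 24 h, and 136 and 199.8 RPKM with and without KLA in the 12 h pair, with most of its difference in the untreated libraries. Pdk1, a kinase that inhibits pyruvate dehydrogenase, had 6.27 and 7.23 RPKM with and without KLA at 24 h, and 1.73 and 4.72 RPKM with and without KLA in the 12 h pair. Hif1a itself had 105 RPKM in KLA 24 h and 47.2 in untreated 24 h cells, against 61.4 in KLA 12 h and 24.3 RPKM in early untreated cells, a log2 difference of -0.17. Several glycolytic genes, Gapdh, Pgk1, Eno1 and Aldoa among them, have processed pseudogene copies, so their levels are uncertain.

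Genes of the ER stress and amino acid response had a median of 0.63, with 4 of 17 tested of 18 called higher and none lower, and 2 higher after the shift. Ddit4, an inhibitor of mTORC1, had 7.10 RPKM in KLA 24 h and 0.459 in untreated 24 h cells, against 2.67 in KLA 12 h and 1.08 RPKM in early untreated cells. Ddit3, which encodes CHOP, had 55.9 RPKM in KLA 24 h and 16.9 in untreated 24 h cells, against 35.3 in KLA 12 h and 33.1 RPKM in early untreated cells. Asns, asparagine synthetase and a target of ATF4, had 20.4 RPKM in KLA 24 h and 4.82 in untreated 24 h cells, against 8.91 in KLA 12 h and 4.94 RPKM in early untreated cells. It was 2.29-fold higher at 24 h than at 12 h of KLA (95% counting interval 1.58 to 3.35). Atf4 itself had 204 and 124 RPKM with and without KLA at 24 h, and 203 and 143 RPKM with and without KLA in the 12 h pair, with no difference between the KLA libraries. Hspa5, the chaperone BiP, had 479 and 262 RPKM with and without KLA at 24 h, and 287 and 235 RPKM with and without KLA in the 12 h pair. The amino acid response element, searched as TGATGNAAN on both strands, was found in 5 of 16 genes of this list with a window (31.3%: Atf3, Trib3, Chac1, Asns and Herpud1) and in 2.75% of all genes tested with a window. Asns is shown as the called gene with a match (chr6:7693160-7693459, minus strand, match in capitals).
Asns: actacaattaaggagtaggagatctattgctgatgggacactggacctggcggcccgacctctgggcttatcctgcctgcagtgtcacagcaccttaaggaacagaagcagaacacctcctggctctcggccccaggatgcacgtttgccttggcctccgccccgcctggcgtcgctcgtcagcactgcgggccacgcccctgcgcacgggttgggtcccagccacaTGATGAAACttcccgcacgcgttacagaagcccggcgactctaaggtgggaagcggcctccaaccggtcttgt

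**Figure D5:**
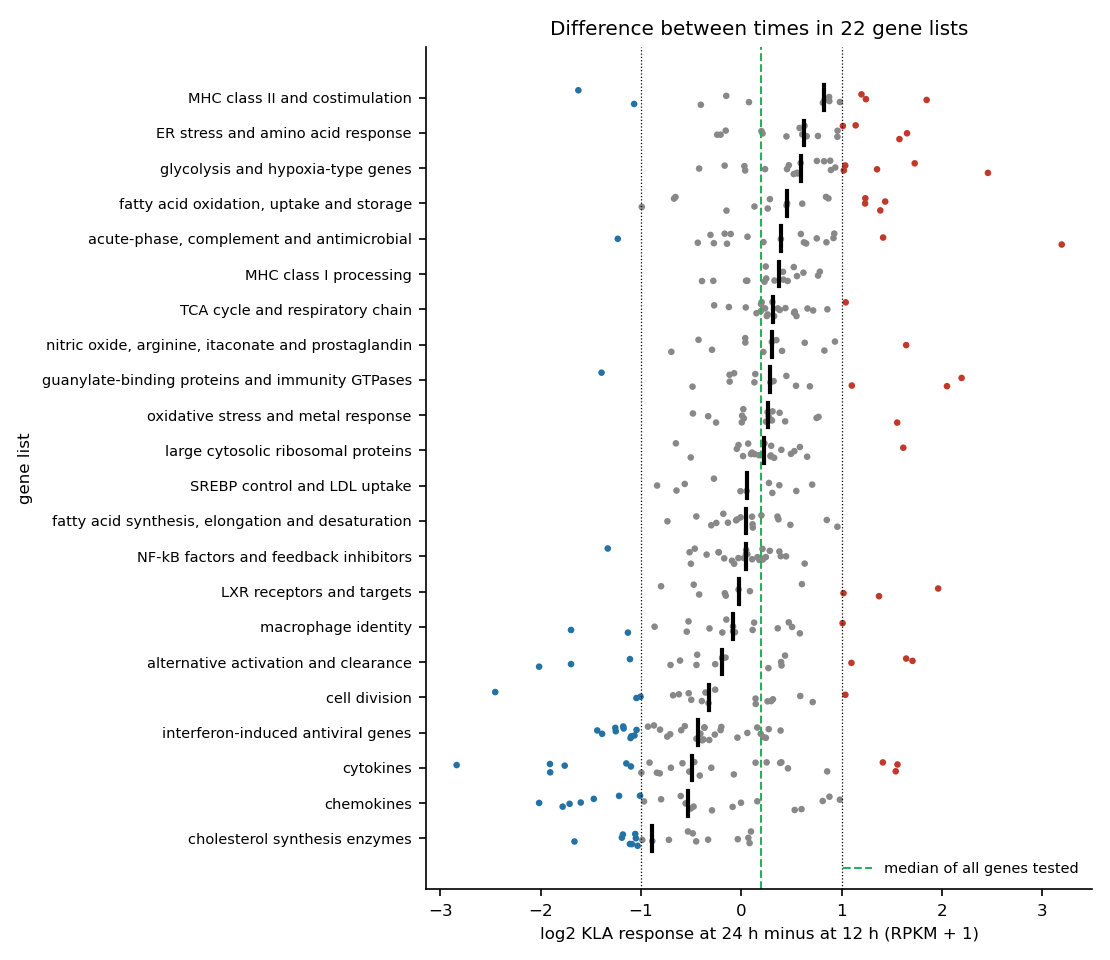
Log2 difference between the responses at 24 h and at 12 h (x axis) for every tested member of 22 gene lists (y axis, ordered by median); black bars are list medians, the dashed line the median of all genes tested, 0.20, and dotted lines mark 2-fold. Cholesterol synthesis enzymes have the lowest median, -0.89, and MHC class II genes the highest, 0.83.

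Products of macrophage activation differed among themselves. Nos2, the inducible nitric oxide synthase, had 146 RPKM in KLA 24 h and 0.388 in untreated 24 h cells, against 72.0 in KLA 12 h and 0.227 RPKM in early untreated cells. It was 2.02-fold higher at 24 h than at 12 h of KLA (95% counting interval 1.85 to 2.21). Arg1, arginase 1, had 16.0 RPKM in KLA 24 h and 9.69 in untreated 24 h cells, against 6.37 in KLA 12 h and 13.5 RPKM in early untreated cells, above its control at 24 h and below it at 12 h. Arg1 was the only called member of 13 tested of 14 in that list, whose median was 0.30, while Irg1, the itaconate synthase, and Ptgs2, the inducible cyclooxygenase, had log2 differences of -0.43 and 0.04. Acute-phase, complement and antimicrobial genes had a median of 0.39, with 2 of 19 tested of 20 called higher and 1 lower. Over all genes tested 6.58% were called higher and 2.22% lower. Beside Hp, Saa3, the serum amyloid A made by macrophages, had 4409 RPKM in KLA 24 h and 325 in untreated 24 h cells, against 2824 in KLA 12 h and 556 RPKM in early untreated cells. Lcn2, the siderophore-binding lipocalin, had 136 and 0.454 RPKM with and without KLA at 24 h, and 51.3 and 0 RPKM with and without KLA in the 12 h pair, and its KLA level was 2.65-fold higher at 24 h than at 12 h of KLA (95% counting interval 2.12 to 3.33).

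Macrophage identity genes had a median of -0.08, with 1 of 18 tested of 19 called higher and 2 lower, against 6.58% and 2.22% of all genes tested. Mrc1, the mannose receptor (mm9 chr2:14151041-14253650, plus strand), had 5.98 RPKM in KLA 24 h and 67.7 in untreated 24 h cells, against 11.4 in KLA 12 h and 36.6 RPKM in early untreated cells. Fcgr1, the high-affinity IgG receptor, had 127 RPKM in KLA 24 h and 15.5 in untreated 24 h cells, against 234 in KLA 12 h and 12.8 RPKM in early untreated cells. Mrc1 was lowered by KLA at both times and Fcgr1 raised at both, and Fcgr3, a low-affinity IgG receptor, was the higher one at 1.01. Alternative activation and clearance genes had a median of -0.19, with 3 of 18 tested of 20 called each way, 2 of each beyond counting error. Mmp12, macrophage elastase, had 611 RPKM in KLA 24 h and 2896 in untreated 24 h cells, against 1427 in KLA 12 h and 3132 RPKM in early untreated cells. Marco, a scavenger receptor, had 23.9 RPKM in KLA 24 h and 1.36 in untreated 24 h cells, against 30.3 in KLA 12 h and 8.69 RPKM in early untreated cells, so that its difference lay in the untreated libraries.

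In 305 higher and 80 lower called genes with at least 20 reads and a difference beyond counting error, the KLA libraries were less than 2-fold apart. The 6 lowest were Gm6377, Glipr2, Cxcl13, Mrc1, Hsd17b7 and Serpina3g, the last a serine protease inhibitor and Cxcl13 the B cell chemokine. Serpina3g had 269.5 RPKM in KLA 24 h and 4.24 in untreated 24 h cells, against 272 in KLA 12 h and 0.679 RPKM in early untreated cells, equal with KLA at both times. Cxcl13 had 63.1 RPKM in KLA 24 h and 115 in untreated 24 h cells, against 78.5 in KLA 12 h and 43.0 RPKM in early untreated cells, below its control at 24 h and above it at 12 h. Glipr2 had 23.5 and 6.51 RPKM with and without KLA at 24 h, and 40.1 and 2.70 RPKM with and without KLA in the 12 h pair. Gm6377 had 11.5 and 11.2 RPKM with and without KLA at 24 h, and 22.2 and 5.18 RPKM with and without KLA in the 12 h pair. The 6 highest, Cox7c, Naa10, 2210408F21Rik, Gm7367, Tmem138 and Pnkd, had at most 26 reads in any of the 4 libraries. Cox7c, a small subunit of cytochrome c oxidase, had 19.2 RPKM in KLA 24 h and 3.45 in untreated 24 h cells, against 14.6 in KLA 12 h and 25.3 RPKM in early untreated cells.

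Transcript length moved with the calls. The median log2 difference was 0.34 for 932 genes of 200 to 1000 bases, 0.26 for 2624 of 1000 to 2000, 0.19 for 4188 of 2000 to 4000 and 0.14 for 2639 longer ones. The shares called higher were 17.1%, 9.91%, 4.87% and 2.27% in the same order, and the shares called lower 3.97%, 3.09%, 2.15% and 0.872%. Between the untreated libraries the median log2 ratio ran from -0.34 in the shortest class to 0.28 in the longest, and between the KLA libraries from 0 to 0.41. The part of length in the results was not tested. Hp, Timp1 and S100a4 have transcripts of 1344, 647 and 498 bases.

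Library totals, recovered from the RPKM values, were 2674826 reads with KLA for 24 h and 2587519 untreated at 24 h. They were 2447142 with KLA for 12 h and 2205187 early untreated. At these totals of the 4 libraries, 1 read in a 1 kb transcript was worth 0.374 to 0.453 RPKM. Macrophage markers were present in all 4, all 8 tested, with Lyz2 at 3936 RPKM in KLA 24 h and 7039.6 in untreated 24 h cells, against 5167 in KLA 12 h and 8848 RPKM in early untreated cells. Of other markers, all 4 erythroid genes were at 0 in all 4 libraries, 5 of 8 mast cell and eosinophil genes were at 0 in all 4, and the summed B cell markers stood at 7.43 RPKM in KLA 24 h, 10.8 in untreated 24 h, 5.68 in KLA 12 h and 13.2 RPKM in early untreated cells. Neutrophil markers summed to 135.1 RPKM in KLA 24 h, 60.1 in untreated 24 h, 112.3 in KLA 12 h and 72.9 RPKM in early untreated cells; S100a8, which macrophages can express too, was the largest part in each. The T and NK cell markers summed to at most 5.28 RPKM and the dendritic cell markers to at most 9.38 RPKM. Resident large peritoneal macrophage markers summed to 171.4, 27.7, 178.9 and 87.2 RPKM in that order of libraries. Of these 6 genes 2 were at least 2-fold above their control at 24 h and 2 at 12 h. At 12 h 2 were at least 2-fold below it, so the sums do not describe every member.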

How the data were processed

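Poly(A) RNA of 4 libraries was compared, 1 library a condition. Levels were RPKM values per RefSeq transcript, made by the authors, as deposited. Bowtie 0.12.7, HOMER, STAR and the build mm9 are named without a role, per the submitters' processing notes; strand, counting and pooling are not given in the sources used here. Peaks of SREBP1 and LXR were called with HOMER, per the file headers, at a false discovery rate of 0.001 and 4-fold over input and surroundings. Peak heights are tag counts, a signal scaled to 10000000 tags by the authors, and the fold over input is a ratio, per the file headers.

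Per symbol the transcript of highest mean RPKM was kept, with at least 200 bases and an RPKM of at least 1 in 2 libraries. The filter passes a gene through any 2 libraries, so a member at 0 with KLA or without it could still be tested; 26 of 442 list members did not pass. Reads and library totals were recovered from the RPKM values, each total being the one that makes RPKM times length times total whole. With these totals about 99.97% of values came out as whole reads within 0.01. On these reads, ratios of 2 libraries have exact conditional (Clopper-Pearson) intervals and ratios of ratios have Wald intervals on the log scale, with 0.5 added where a library had 0, all at 95%. Genes were named by size: the 12 largest differences each way with at least 20 reads, KLA libraries 2-fold apart and an interval off 1; the 6 largest each way with KLA libraries less than 2-fold apart; and members of 22 lists. The comparison, lists and rules were chosen with earlier results of these data known. Python 3.11.15, numpy 2.4.6, pandas 2.3.3, scipy 1.17.1 and matplotlib 3.10.9 were used. The differences and the ratios of ratios with their Wald intervals were tested on simulated reads with counting error alone. That test covered genes with at least 100 expected reads over the 4 libraries. It covered neither genes of fewer reads nor the Clopper-Pearson intervals. Alternatives changed the pseudocount, the filter, the scaling, the transcript, the control and the call rule. Some list members count in the totals but are not reported here by name.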

Additional observations from a re-analysis of the deposited data

Results flagged for a closer look

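For 6 of the genes named, the KLA library lay on one side of its control at 24 h and on the other side at 12 h, each beyond counting error. The difference between the times was not tested, since each condition is 1 library. Gpsm2, a spindle-orienting factor, had a log2 ratio to its control of -0.92 at 24 h and 0.85 at 12 h, a difference of -1.77. Cxcl13, the B cell chemokine, had -0.86 and 0.85, a difference of -1.71. Hsd17b7, of cholesterol synthesis, had -0.72 and 0.94, a difference of -1.66. These 3 were below their control at 24 h and above it at 12 h.

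Arg1, arginase 1, went the other way, with 0.67 at 24 h and -0.98 at 12 h, a difference of 1.64. The glycolytic genes Tpi1 and Pkm did so too. Tpi1 had 0.94 at 24 h and -0.42 at 12 h, a difference of 1.35, and Pkm had 0.47 and -0.55, a difference of 1.02. Among all 10383 genes tested, 46 called genes changed side in this way, 38 with the higher value at 24 h and 8 with the lower. The median response of all genes was -0.10 at 24 h and -0.33 at 12 h, with quartiles of -0.77 and 0.13 at 12 h. Tpi1 and Pkm thus lay between the quartiles at 12 h. Pkm was no longer called after the shift to a median of 0. The part of the difference between these medians in the 38 and 8 genes was not tested.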

How the results depend on the processing

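The counts of called genes moved with the settings. The 683 higher and 231 lower genes became 952 and 348 with a pseudocount of 0.5, 254 and 80 with a pseudocount of 3, 337 and 105 with a mean RPKM of at least 5, and 481 and 125 with a counting interval off 1. They became 312 and 115 of 7545 genes with at least 100 reads, a limit chosen after seeing the data. Shifting each response to a median of 0 gave 348 and 446, so that 43.8% of calls were higher against 74.7% as reported. No filter (783 and 283), the longest transcript (655 and 226), no length minimum (756 and 304) and the KLA libraries compared directly (504 and 162) stayed within 1.5 times, but the direct comparison shared 239 higher and 85 lower genes with the reported calls.

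Against KLA 12 h directly, 7 named genes with a difference of at least 2-fold changed sign, to -0.44 for 2210408F21Rik, -0.68 for Cd5l, 0.066 for Cxcl3, 0.29 for Gbp5, -0.33 for Marco, -0.27 for Retnla and -0.86 for Tnf. Smaller differences that changed sign, such as that of Hif1a (to 0.76), are not in that count. Under that setting 305 of 440 gene results moved by less than their counting interval and 128 moved by more; under the shift these were 382 and 58. No paired analysis was possible because each condition is 1 library, and none could be left out. Counting error limits genes of few reads: 3 reads in a 1 kb transcript came to 1.12 to 1.36 RPKM.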

Other observations

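The other lists in the same comparison differed in how many of their genes were called. Over all genes tested 6.58% were called higher and 2.22% lower, so a list with only 1 higher call of 18 tested is near that share. Fatty acid oxidation, uptake and storage had 4 of 16 tested of 19 called higher, none lower, and a median log2 difference of 0.45. All 4 higher calls were beyond counting error, and after the shift to a median of 0 the calls by size were 4 higher and 1 lower. Called higher were the acyl-CoA dehydrogenases Acadm and Acadvl, Hadhb of the trifunctional protein, and Angptl4, an inhibitor of lipoprotein lipase. Acadm had 9.25 RPKM in KLA 24 h and 15.6 in untreated 24 h cells, against 4.16 in KLA 12 h and 21.6 RPKM in early untreated cells. Acadvl had 17.1 RPKM in KLA 24 h and 17.1 in untreated 24 h cells, against 8.03 in KLA 12 h and 20.3 RPKM in early untreated cells. For both, KLA 12 h was the lowest of the 4 libraries. Cd36, the scavenger receptor for oxidised lipid, had 268 and 1496 RPKM with and without KLA at 24 h, and 476 and 1337 RPKM with and without KLA in the 12 h pair, a log2 difference of -0.99.

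LXR receptors and targets had a median of -0.03 with 3 of 11 tested of 13 called higher, Apoc2, Cd5l and Arl4c. All 3 were beyond counting error, and after the shift 2 were higher and 1 lower. Nr1h3, which encodes LXR alpha, had 19.1 RPKM in KLA 24 h and 21.9 in untreated 24 h cells, against 44.0 in KLA 12 h and 28.5 RPKM in early untreated cells. Abca1, the cholesterol exporter, had 29.8 RPKM in KLA 24 h and 12.9 in untreated 24 h cells, against 15.9 in KLA 12 h and 5.79 RPKM in early untreated cells. Cd5l, also a marker of resident macrophages, had 17.1 RPKM in KLA 24 h and 17.8 in untreated 24 h cells, against 27.9 in KLA 12 h and 77.1 RPKM in early untreated cells, most of its difference being in the untreated libraries. Oxidative stress and metal response genes had a median of 0.27 with 1 of 18 called, the metallothionein Mt2, at 45.8 and 14.6 RPKM with and without KLA at 24 h, and 12.5 and 12.3 RPKM with and without KLA in the 12 h pair. TCA cycle and respiratory chain genes had a median of 0.32 with 1 of 22 called, Idh2, and none after the shift. Ribosomal proteins had a median of 0.23 with 1 of 21 tested of 22 called, Rpl19; their many copies make single levels uncertain, and the median became -0.40 between the KLA libraries. Cell division genes had a median of -0.33 with 1 of 19 tested of 25 called higher, Birc5, and 3 lower, Cdkn1c, Ccnd1 and Ccnb2; of these Cdkn1c and Ccnd1 were beyond counting error. That median was 0.30 over the 7 of these genes with a mean RPKM of at least 5 and -0.0016 between the KLA libraries. Resting on few reads, Mki67 had 2.75 and 1.07 RPKM with and without KLA at 24 h, and 3.33 and 0.495 RPKM with and without KLA in the 12 h pair.

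Actb, outside the naming rule and picked after its values were seen, had 2114 RPKM in KLA 24 h and 3036 in untreated 24 h cells, against 5832 in KLA 12 h and 3186 RPKM in early untreated cells. It was 2.76-fold lower at 24 h than at 12 h of KLA (95% counting interval 2.70 to 2.82). Egr1, an immediate-early gene just outside the 12 largest higher differences, had 2.68 RPKM in KLA 24 h and 1.26 in untreated 24 h cells, against 0.665 in KLA 12 h and 3.84 RPKM in early untreated cells, while at 1 h of KLA it had 216 RPKM.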
